A study of Mus musculus with 17 samples.

Results

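Macrophages of lung tumors were profiled by bulk RNA sequencing as 2 sorted populations, named in the labels tissue-resident macrophages (TRMs) and monocyte-derived macrophages (MDMs). The comparison described here set the 2 TRM libraries of KLG4 tumors against the 2 MDM libraries of tumors of that genotype, 4 of the 17 samples of the series. Each population came from a table of its own, so every level below is compared across 2 separately made tables. Genes were matched by name, and of the 12147 genes present in both tables the 10680 with at least 1 RPKM (reads per kilobase of exon, scaled to the depth of the library) in at least 2 of the 4 libraries were tested. All levels below are RPKM rescaled to 1 common sum over the shared genes without mitochondrial genes.

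KLG4 mice were Lkb1 fl/fl and Gpx4 m/m and carried 1 further Cre-dependent allele that is not reported here, and Cre removes Lkb1 (gene symbol Stk11). Mice 8 to 10 weeks old received adenoviral Cre through the nose, were given tamoxifen for 2 weeks starting 5 weeks later, and were then rested for 3 weeks. Exons 5 to 7 of Gpx4 lie between sites for the Dre recombinase, whose tamoxifen-dependent form is made once Cre has acted, so the deletion is meant for the tumor cells and not for the macrophages. Both populations shared every allele and treatment. The gates that separated TRMs from MDMs were not given in the sources used here. The labels do not say whether the 2 replicates came from separate mice, so the p-values measure the spread between these libraries, which may be technical.

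Resident macrophages of the lung airspace, the alveolar macrophages, are seeded before and around birth, renew themselves in place and clear surfactant lipid, and they depend on CSF2 and the lipid-sensing nuclear receptor PPARγ. Monocyte-derived macrophages descend from blood monocytes that enter inflamed tissue or tumors through the receptor CCR2 and lose monocyte genes as they mature. Neutrophils, short-lived granulocytes that also carry CD11b (Itgam), fill their granules with antimicrobial proteins and hold large amounts of the calcium-binding proteins S100A8 and S100A9.

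The libraries held about 11756000 to 26775000 counted reads, the fewest in TRM replicate 2, and mitochondrial reads made up 1.43% and 2.40% of them in TRMs and 0.494% and 0.661% in MDMs. The log2 levels of the 2 TRM libraries correlated with r = 0.976 across genes and those of the 2 MDM libraries with r = 0.986, against 0.765 to 0.780 between the populations. With limma on the log2 scale, 7245 of the 10680 genes (67.8%) passed an adjusted p of 0.05. Of these, 4220 (39.5% of the tested genes) were higher in TRMs and 3025 (28.3%) were higher in MDMs. The 2 populations did not overlap for 9127 genes (85.5%). The median log2 fold change (TRMs minus MDMs, the sign used throughout) of all tested genes was 0.22, and 58.2% of the called genes were higher in TRMs. Trimmed-mean scaling (TMM) moved that median to 0.01 and the share to 49.9%. By the cutoff the study used (unadjusted p of 0.05 and a 2-fold difference), 5039 genes (47.2%) were called. Of these 3010 (28.2% of the tested genes) were higher in TRMs and 2029 (19%) in MDMs, so that 59.7% of the calls were higher in TRMs, against 48.6% under TMM. Counts of members below are read against these shares. Where 1 library is left out, its population has a single library, which limma then assumes to vary like the other population.

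The first check was of the 2 labels against marker genes. The libraries labelled TRMs held the alveolar macrophage program. Of 16 alveolar macrophage markers, 15 were higher in TRMs, with a median log2 fold change of 3.08. Chil3, which encodes the chitinase-like protein Ym1, stood at 7206 and 5660 RPKM in the TRM libraries and at 963 and 959 in the MDM libraries. Ear2, an eosinophil-associated ribonuclease gene that alveolar macrophages of mice express, was at 3926 and 3902 in TRMs and at 405 and 490 in MDMs. Marco, a scavenger receptor for inhaled particles and bacteria, was at 380 and 582 against 24.3 and 54.4. In each of these genes both TRM libraries lay far above both MDM libraries. The log2 fold changes were 2.73 for Chil3 (SE 0.19, limma adjusted p = 1.8e-04), 3.13 for Ear2 (SE 0.16, limma adjusted p = 9.6e-05) and 3.69 for Marco (SE 0.40, limma adjusted p = 6.1e-04). Pparg, the nuclear receptor that directs alveolar macrophage identity, was at 28.0 and 32.7 in TRMs and at 3.89 and 5.45 in MDMs. The 1 marker that did not pass was Siglecf, a sialic acid receptor much used to sort alveolar macrophages. Its levels were 17.3 and 21.4 in TRMs against 13.02 and 15.3 in MDMs (log2 fold change 0.45, SE 0.17, limma adjusted p = 0.061), and it passed with the values as deposited (limma adjusted p = 0.021), with the replicate block (limma adjusted p = 0.037) and, on the single TRM library at 21.4, without TRM replicate 1 (limma adjusted p = 0.023). Across the 15 markers that were higher in TRMs, the mean MDM level was between 4.72% (Ear1) and 23.3% (Atp6v0d2) of the mean TRM level, with a median of 11.4%.

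In the libraries labelled MDMs, markers of neutrophils were high, a cell type that the label does not name. Their summed level stood above those of monocytes, macrophages and every other cell type listed, but most of it was S100a9. Sums over lists of different genes do not rank cell types. Of the 12 neutrophil markers, 9 were measured in both tables, and 9 of 9 were higher in the MDM libraries, against 28.3% of all tested genes, with a median log2 fold change of -6.54. S100a9 stood at 19369 and 17278 RPKM in the MDM libraries and at 90.1 and 56.2 in the TRM libraries. It alone made up 5.09% and 4.54% of the rescaled sum of the MDM libraries, against 0.0237% and 0.0148% of that of the TRM libraries. Csf3r, the receptor for the neutrophil growth factor G-CSF, was at 306 and 347 in MDMs and at 1.86 and 1.22 in TRMs. For both genes every MDM library lay far above every TRM library. The log2 fold changes were -8.00 for S100a9 (SE 0.25, limma adjusted p = 4.0e-05, a mean 250.5-fold higher in MDMs) and -7.66 for Csf3r (SE 0.22, limma adjusted p = 3.8e-05, 212-fold). Genes for granule proteins followed. Ngp (neutrophilic granule protein) was at 338 and 413 against 3.58 and 3.92, Lcn2 (the iron-scavenging lipocalin) at 58.4 and 89.9 against 1.63 and 2.06, and Ltf (lactoferrin) at 58.5 and 81.3 against 0.789 and 5.24. The neutrophil chemokine receptor Cxcr2 was at 83.4 and 103 against 0.917 and 2.18. Summed over the 9 markers, the MDM libraries held 21819 and 19702 RPKM and the TRM libraries 117 and 85.7. The other 3 markers, Ly6g, Mmp9 and Camp, were listed in the MDM table and not in the TRM table. Ly6g was at 7.94 and 6.12 and Mmp9 at 41.8 and 34.7 deposited RPKM in the MDM libraries.

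**Figure D1:**
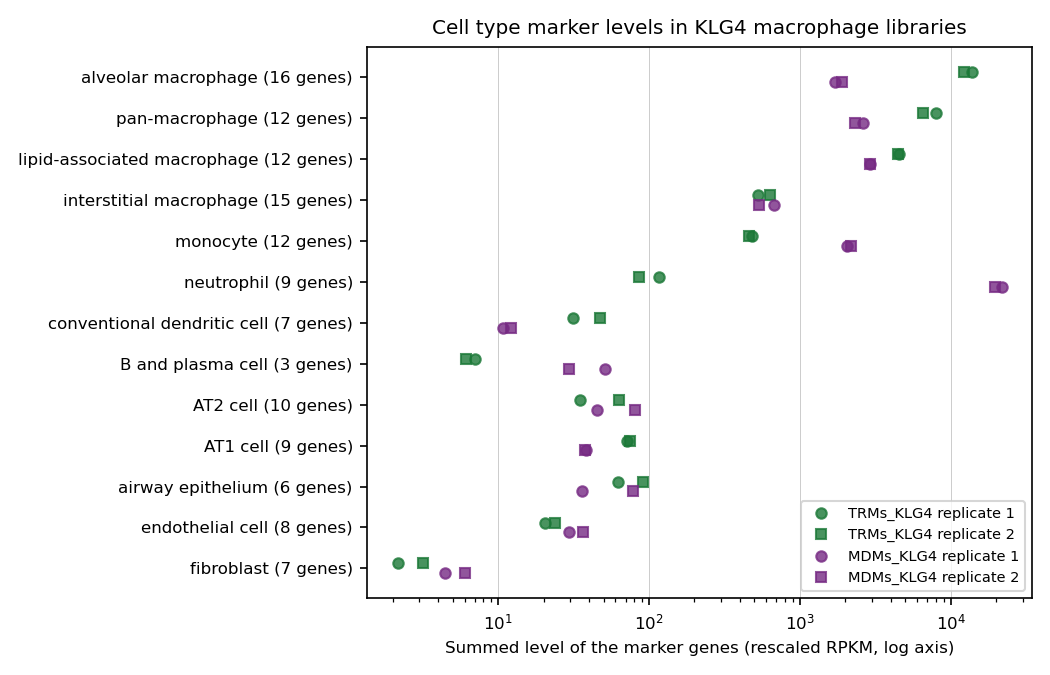
Summed level of each cell type's marker genes in the 4 KLG4 libraries, in rescaled RPKM on a log axis, with 1 symbol per library (green TRMs, purple MDMs; circle replicate 1, square replicate 2). The neutrophil sums are 21819 and 19702 in the MDM libraries and 117 and 85.7 in the TRM libraries, and the alveolar macrophage sums are 13856 and 12251 in the TRM libraries and 1718 and 1902 in the MDM libraries. S100a9 alone is 19369 and 17278 RPKM of the neutrophil sums in the MDM libraries.

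Granule and S100 genes are classic targets of the C/EBP family of transcription factors, and the letters of its motif were looked for in the 250 bases upstream of each gene's start in RefSeq (GRCm38.p6). With the letters TTGCNNAA on either strand, 7 of the 11 neutrophil markers with a promoter sequence held a match (63.6%), against 9.55% of all 27025 promoters of the same length. A match is a description of letters, not of binding. The promoters of S100a9 and Ngp, a member of each gene class with one of the widest differences between the populations, are shown 5′ to 3′ with the matches in capitals.
S100a9 (chr3:90695722-90695971, minus strand): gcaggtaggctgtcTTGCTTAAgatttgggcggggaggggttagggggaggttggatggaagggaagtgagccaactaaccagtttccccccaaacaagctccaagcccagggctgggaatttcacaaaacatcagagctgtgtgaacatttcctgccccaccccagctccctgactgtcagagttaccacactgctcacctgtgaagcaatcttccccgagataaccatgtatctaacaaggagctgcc
Ngp (chr9:110419558-110419807, plus strand): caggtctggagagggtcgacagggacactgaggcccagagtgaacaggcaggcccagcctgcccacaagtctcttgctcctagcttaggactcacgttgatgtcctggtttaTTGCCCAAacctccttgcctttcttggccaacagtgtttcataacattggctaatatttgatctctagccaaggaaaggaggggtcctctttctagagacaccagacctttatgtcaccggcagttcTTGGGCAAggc
The S100a9 sequence carries 1 match and that of Ngp 2, while those of S100a8 and Csf3r held none in this window.

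Markers of monocytes and macrophages in the MDM libraries gave a mixed picture. The 11 tested monocyte markers comprised 3 higher in TRMs and 7 higher in MDMs. Among the 7 were genes that neutrophils also express and genes better known from monocytes. Itgam (CD11b) was at 533 and 589 in MDMs against 28.9 and 18.3 in TRMs, and Cd14 (the endotoxin co-receptor) at 890 and 954 against 157 and 166. F13a1 (coagulation factor XIII subunit A), a gene of classical monocytes, was at 19.2 and 16.4 against 2.06 and 0.904. Treml4 and Nr4a1 were higher in MDMs as well, Treml4 at 20.4 and 20.2 against 2.57 and 2.71 and Nr4a1 at 176 and 193 against 37.2 and 35.8. Both F13a1 and Treml4 were far apart between the populations. Ace, Spn and Gngt2 were the 3 higher in TRMs. Ace was at 13.3 and 11.7 in TRMs against 2.69 and 2.62 in MDMs, and Spn at 30.5 and 22.6 against 14.3 and 11.2. Gngt2 was at 198 and 184 against 114 and 113. Ccr2, the receptor through which monocytes enter tissue, was low in every library, at 3.94 and 2.80 in MDMs and at 2.54 and 7.12 in TRMs, and the populations overlapped (limma adjusted p = 0.54). With TRM replicate 1 left out, and a single TRM library at 7.12, it had a limma adjusted p of 0.011. Ly6c2, which marks inflammatory monocytes, was listed in the MDM table alone, at 0.980 and 0.280 deposited RPKM, as was Plac8, at 6.70 and 6.73.

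Of 12 tested interstitial macrophage markers 2, Pf4 and Ms4a7, were called higher in TRMs and 2, Stab1 and Cx3cr1, in MDMs, and 8 were not called. The calls in TRMs fell to 0 without MDM replicate 2 and with voom, and to 1 without MDM replicate 1, without TRM replicate 2, under TMM and under quantile scaling. Without TRM replicate 1 they numbered 3, and without TRM replicate 2 those in MDMs numbered 3. Cx3cr1, the fractalkine receptor, was at 7.26 and 7.77 in MDMs against 3.39 and 4.22 in TRMs, and Stab1, a scavenger receptor, at 1.35 and 1.30 against 0.359 and 0.375. C1qa, a subunit of complement C1q, was at 23.9 and 31.6 in TRMs and at 26.2 in both MDM libraries. Csf1r, the receptor for the macrophage growth factor CSF1, was at 33.9 and 43.0 against 39.9 and 44.3 (log2 fold change -0.14, SE 0.16, limma adjusted p = 0.47). Apoe, the lipid-carrying apolipoprotein, was at 420 and 491 against 549 and 410. C1qa, Csf1r and Apoe overlapped between the populations. Among the 12 pan-macrophage genes 5 were higher in TRMs (3 without MDM replicate 2) and 4 in MDMs. Mertk, a receptor for apoptotic cells, was at 80.8 and 63.5 in TRMs and at 5.87 and 5.71 in MDMs, and Lyz2 (lysozyme) at 6441 and 5303 against 1273 and 1095, whereas Adgre1 (F4/80) overlapped, at 29.8 and 19.3 against 18.0 and 23.5. The lipid-associated macrophage list, genes of macrophages that take up lipid in tumors and fat, had 10 of 12 members higher in TRMs (8 under TMM) and 0 higher in MDMs (1 under quantile scaling and with voom).

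The other cell types were lower. Summed marker levels of alveolar type 2 cells were 34.8 and 63.5 RPKM in TRMs and 45.4 and 81.1 in MDMs, those of type 1 cells 71.3 and 74.9 against 38.5 and 37.6, and those of airway epithelium 62.6 and 91.3 against 35.7 and 78.7. Endothelial sums reached at most 36.4 and fibroblast sums at most 5.99. Among the epithelial genes Epcam, an adhesion molecule of epithelial and tumor cells, was at 12.6 and 24.6 in TRMs against 0.976 and 4.05 in MDMs, and Cdh1 (E-cadherin) was called higher in TRMs too. The keratins Krt8 and Krt18 stood apart in MDM replicate 2, at 18.3 and 19.7 against 2.34 and 2.75 in replicate 1. In TRMs they were higher in replicate 2 as well, at 6.03 and 7.22 against 1.93 and 1.13. With the replicate block the calls higher in MDMs rose from 0 to 2 for type 2 cells and for airway epithelium. For type 1 cells they rose from 1 to 3. B and plasma cell markers (3 tested) were all higher in MDMs, with sums of 50.9 and 29.7 against 7.06 and 6.16. Conventional dendritic cell markers were higher in TRMs in 4 of 5 tested cases, with sums of 31.4 and 47.4 in TRMs against 10.8 and 12.2 in MDMs. Kmo (kynurenine monooxygenase) was at 2.63 and 2.88 against 0.0878 and 0.245, and Mgl2, a lectin also found on alternatively activated macrophages, at 12.6 and 29.7 against 2.50 and 4.77. Clec9a, a receptor of cross-presenting dendritic cells, was higher in MDMs, at 5.92 and 5.35 against 3.12 and 3.33, a call that was lost without MDM replicate 1 (limma adjusted p = 0.067). Flt3, Xcr1, Ccr7 and Fscn1 were listed in the TRM table alone, between 0.535 and 5.68 deposited RPKM. Of 12 T and NK cell markers 10 were in neither table and Cd4 was in the TRM table alone. Cd2, an adhesion receptor of T and NK cells, was at 50.5 and 49.8 in TRMs against 5.38 and 6.47 in MDMs. In bulk samples such as these, fewer cells of a type and less RNA per cell cannot be told apart. The part of the neutrophil transcripts in the results below was not tested. The names TRM and MDM below are those of the labels.

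**Figure D2:**
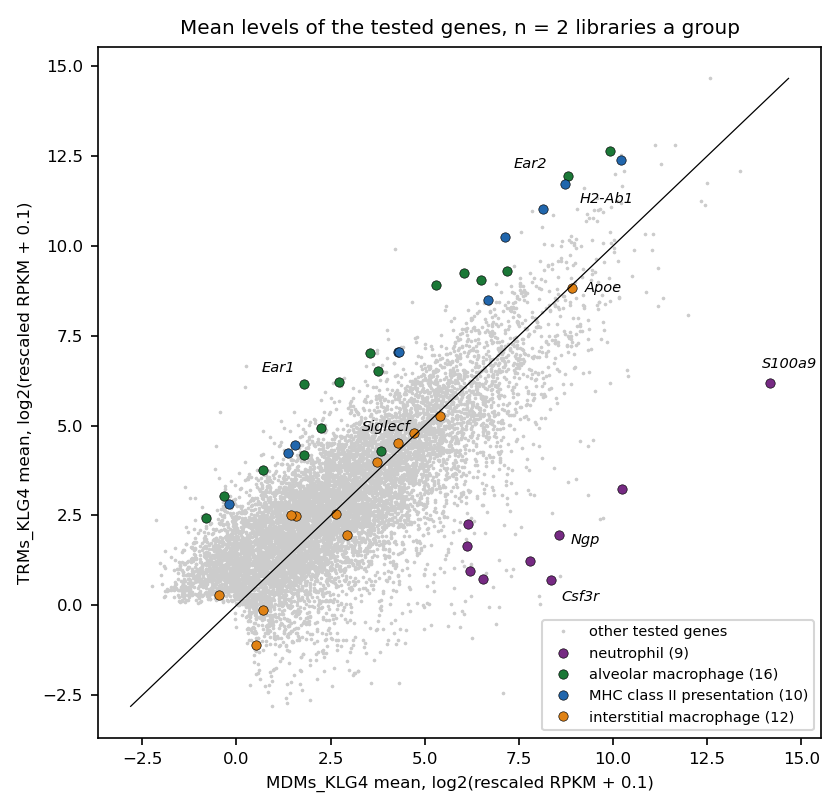
Mean log2(rescaled RPKM + 0.1) of the 10680 tested genes in the MDM libraries (horizontal) and the TRM libraries (vertical), n = 2 each, with the line of equal levels and 4 gene lists in color. The 9 neutrophil markers lie far below the line, the 16 alveolar macrophage and 10 MHC class II genes above it, and the 12 interstitial macrophage genes around it.

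The genes with the widest differences came next, taken as the 12 largest log2 fold changes in each direction among called genes with a mean of at least 10 RPKM in the higher population and no overlap (1512 genes were eligible on the TRM side and 1545 on the MDM side). Higher in TRMs, Mfsd7c, a membrane transporter of the major facilitator family on chromosome 12, led with 21.8 and 20.8 RPKM against 0.435 and 0.745 in MDMs. The difference was 36.1-fold, a log2 fold change of 4.99 (SE 0.26, limma adjusted p = 9.5e-05). Siglec1, the sialic acid receptor CD169 of tissue macrophages, was at 14.0 and 13.8 against 0.552 and 0.590. Ear1, a close copy of Ear2 with which it can share reads, was at 62.7 and 79.0 against 2.84 and 3.85. The remaining 9 had log2 fold changes between 3.66 and 4.09 and held the zinc transporter Slc39a2, the sodium-proton exchanger Slc9a4, the organic anion carrier Slco2b1, complement C4b, adenylate cyclase Adcy3, the activating receptor Lilra5, Marco, the mannose receptor Mrc1 and the chemokine Ccl17. Ccl17, which draws CCR4-bearing T cells, varied within the TRM libraries, at 225 and 467, and stood at 16.2 and 34.1 in MDMs.

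Higher in MDMs, the 12 widest differences were larger than any in the other direction. Stfa2, a stefin A inhibitor of cysteine proteases on chromosome 16, was at 120 and 151 RPKM in MDMs and at 0.169 and 0 in TRMs, a level too low in TRMs for a fold to be given. Stfa2l1 on the same chromosome, a near-identical copy with which it can share reads, was at 394 and 375 against 2.60 and 0.746. Asprv1, an aspartic protease, was at 258 and 278 against 1.25 and 0.599 (log2 fold change -8.11, SE 0.31, limma adjusted p = 5.5e-05). Hdc, which makes histamine, was at 266 and 255 against 1.31 and 0.894, and G0s2, an inhibitor of the triacylglycerol lipase ATGL, at 755 and 869 against 5.10 and 5.32. Others among the 12 were S100a9, S100a8, Csf3r, the retinol dehydrogenase Rdh12, the Schlafen gene Slfn4 and Il1f9, which encodes interleukin-36γ. Slfn4 was at 869 and 822 against 5.43 and 5.08 (log2 fold change -7.30, SE 0.12, limma adjusted p = 2.0e-05). These genes kept their direction and call under every alternative that could be run for them, which for Stfa2 leaves out voom because its reads were not recovered. The same held for the genes higher in TRMs, with voom not run for Ear1.

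**Figure D3:**
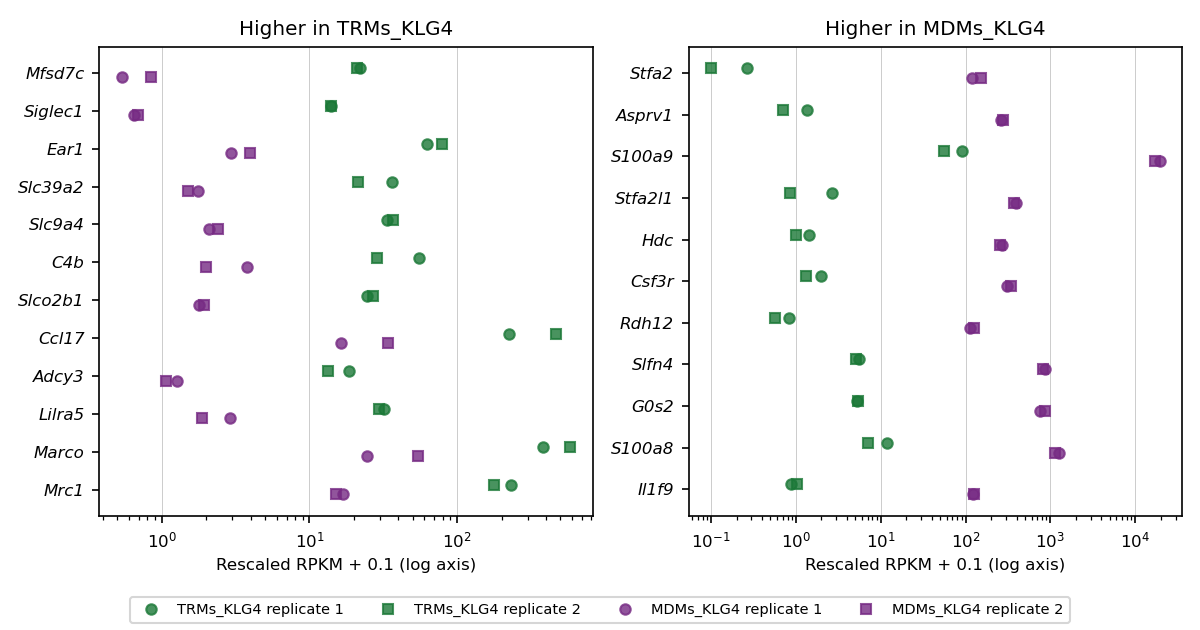
Levels of genes with the largest log2 fold change in each direction, 12 higher in TRMs and 11 of the 12 higher in MDMs, as rescaled RPKM + 0.1 on a log axis, with 1 symbol per library (green TRMs, purple MDMs; circle replicate 1, square replicate 2). In every gene the 2 populations are apart, and the gap is wider in the right panel, where S100a9 reaches 19369 RPKM in MDMs.

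Antigen presentation by MHC class II separated the populations in 1 direction. All 10 tested genes of the 13 in the list were higher in TRMs, against 39.5% of all genes, with a median log2 fold change of 2.88. H2-Ab1, a chain of the peptide-binding I-A molecule, was at 3287 and 3409 RPKM in TRMs and at 448 and 402 in MDMs (log2 fold change 2.98, SE 0.15, limma adjusted p = 8.8e-05). Cd74, the invariant chain that guides class II molecules to the endosome, was at 2148 and 2045 against 281 and 287. Ciita, the activator that switches on the class II genes, was at 6.42 and 7.36 against 0.845 and 0.684. The mean MDM level lay between 11.1% (Ciita) and 28.3% (Ifi30) of the TRM level, with a median of 13.4%. Of the conventional dendritic cell markers, which mark another class II-bearing cell, 4 of 5 were higher in TRMs too, as given above, and their part in this result was not tested. Class II promoters carry a Y box, an inverted CCAAT sequence. Of 10 class II genes with a RefSeq promoter, 4 held the letters CTGATTGG on either strand in the 250 bases upstream (40%), against 4.07% of all promoters. The sequences of H2-Eb1 and H2-Aa, the 2 of these 4 that were tested, are given with the match in capitals (GRCm38.p6).
H2-Eb1 (chr17:34305617-34305866, plus strand): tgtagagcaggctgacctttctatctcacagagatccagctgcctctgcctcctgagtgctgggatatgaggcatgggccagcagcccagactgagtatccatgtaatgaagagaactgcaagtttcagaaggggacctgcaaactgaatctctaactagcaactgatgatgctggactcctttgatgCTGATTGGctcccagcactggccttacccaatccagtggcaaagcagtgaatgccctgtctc
H2-Aa (chr17:34287824-34288073, minus strand): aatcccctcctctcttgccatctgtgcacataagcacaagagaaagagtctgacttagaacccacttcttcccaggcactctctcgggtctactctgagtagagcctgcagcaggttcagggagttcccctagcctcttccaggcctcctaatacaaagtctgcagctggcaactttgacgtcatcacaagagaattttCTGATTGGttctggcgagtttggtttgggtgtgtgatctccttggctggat
H2-Eb1 was at 3.12 on the log2 fold change scale (SE 0.15) and H2-Aa at 2.75 (SE 0.12). Of 23 class I presentation genes 6 were higher in TRMs and 3 in MDMs, with a median log2 fold change of 0.30, near that of all genes. These counts rested on single libraries: they were 15 and 3 without TRM replicate 2, 4 and 7 without TRM replicate 1, and 3 and 3 without MDM replicate 2. H2-M3, which presents formylated bacterial peptides, was at 41.1 and 30.4 in TRMs against 5.59 and 3.90 in MDMs. The class I genes are near-identical copies in part, and how their reads were shared out is uncertain.

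Interferon response genes moved the other way, with 30 of 41 tested higher in MDMs and 2 higher in TRMs (5 without TRM replicate 2, 1 without MDM replicate 2), with a median log2 fold change of -1.65. Rsad2, the antiviral enzyme viperin, was at 44.1 and 30.3 RPKM in MDMs and at 2.14 and 0.803 in TRMs (log2 fold change -4.69, SE 0.44, limma adjusted p = 4.0e-04). Ifitm3, which blocks viral entry, was at 89.4 and 60.3 against 3.12 and 1.14, and Isg15, a ubiquitin-like modifier, at 74.1 and 50.5 against 10.4 and 6.94. In each case the lower MDM library was still above the higher TRM library. Irf7, the factor that amplifies the response, had a log2 fold change of -3.38 (SE 0.30). The 2 exceptions were Bst2 (tetherin), at 23.05 and 17.2 in TRMs against 10.6 and 8.82, and Mx1, at 2.27 and 2.10 against 1.19 and 0.747, whose call was lost without MDM replicate 2 (limma adjusted p = 0.072) and under quantile scaling (limma adjusted p = 0.055). The interferon-stimulated response element was searched as GAAA, any 2 bases and GAAA again, on either strand. It was found upstream of 18 of the 33 list genes with a RefSeq promoter (54.5%), against 3.04% of all promoters. The promoters of Rsad2 and Ifit1 are shown with the matches in capitals (GRCm38.p6).
Rsad2 (chr12:26456453-26456702, minus strand): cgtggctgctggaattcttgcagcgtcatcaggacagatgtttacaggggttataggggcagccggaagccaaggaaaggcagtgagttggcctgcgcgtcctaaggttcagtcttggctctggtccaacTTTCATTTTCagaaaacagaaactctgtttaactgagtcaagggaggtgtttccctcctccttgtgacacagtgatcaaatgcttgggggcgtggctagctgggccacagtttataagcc
Ifit1 (chr19:34640639-34640888, plus strand): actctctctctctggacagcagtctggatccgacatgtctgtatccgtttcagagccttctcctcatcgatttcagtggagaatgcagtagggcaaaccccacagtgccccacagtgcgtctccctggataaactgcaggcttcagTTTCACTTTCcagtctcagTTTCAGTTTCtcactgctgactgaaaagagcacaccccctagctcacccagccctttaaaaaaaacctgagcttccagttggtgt
Ifit1, an RNA-binding antiviral protein, was at 8.88 and 5.74 in MDMs and at 0.647 and 0.698 in TRMs.

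The NF-kB pathway, which drives inflammatory gene expression downstream of Toll-like and TNF receptors, had 22 of 25 members higher in MDMs and 1 higher in TRMs (2 with the values as deposited), with a median log2 fold change of -1.86. Traf1, an adaptor of TNF receptors, was at 20.2 and 18.4 RPKM in MDMs and at 1.66 and 1.69 in TRMs (log2 fold change -3.45, SE 0.16, limma adjusted p = 8.1e-05). Birc3, a ubiquitin ligase that protects from cell death, was at 159 and 155 against 17.3 and 21.9. The inhibitor Nfkbia was at 529 and 618 against 184 and 215. Among the subunits, Nfkb2 had a log2 fold change of -2.22 (SE 0.15) and Rela one of -1.51 (SE 0.15). Tnip3, an inhibitor of the pathway, was the exception, at 8.74 and 10.5 in TRMs against 3.35 and 2.88 in MDMs. Of the Toll-like receptor list 10 of 20 members were higher in MDMs and 6 in TRMs. Tlr13, a sensor of bacterial ribosomal RNA, was at 27.3 and 28.6 in MDMs against 4.15 and 4.37 in TRMs, while Tlr7, a sensor of single-stranded RNA, was at 12.98 and 11.6 in TRMs against 1.51 and 1.60. Immediate early genes were higher in MDMs in 18 of 28 cases, and 3 of the 28 (5 without TRM replicate 2) were higher in TRMs. Egr1 was at 44.9 and 45.4 in MDMs against 5.83 and 4.99 in TRMs, and Fos at 193 and 121 in TRMs against 84.4 and 84.7 in MDMs. The call for Fos was lost without either MDM replicate (limma adjusted p = 0.061 in both).

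Cytokines and growth factors were split evenly, with 12 of 30 higher in each population. Csf1, the growth factor on which macrophages themselves depend, was at 147 and 139 RPKM in MDMs and at 1.79 and 1.96 in TRMs (log2 fold change -6.18, SE 0.14, limma adjusted p = 2.0e-05). Il1b, the inflammasome-processed cytokine, was high in all libraries, at 2445 and 2259 in MDMs and at 579 and 757 in TRMs. Its natural antagonist Il1rn was at 635 and 834 against 55.9 and 68.1, and the decoy receptor Il1r2 at 325 and 341 against 4.69 and 7.04. Ligand, antagonist and decoy were all higher in MDMs, with log2 fold changes of -1.83, -3.56 and -5.83. Tnf was at 137 and 98.8 against 25.6 and 25.2, and Il23a, a subunit of interleukin-23, at 158 and 132 against 9.09 and 6.65. Higher in TRMs were Il18, at 83.9 and 92.5 against 9.49 and 16.4, Il6, at 11.8 and 11.6 against 4.99 and 2.31, and Igf1, at 13.1 and 8.35 against 5.92 and 4.86. The call for Igf1 had a limma adjusted p of 0.017 and was lost without MDM replicate 2 (limma adjusted p = 0.075).

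Among 23 chemokines and chemokine receptors 11 were higher in MDMs and 7 in TRMs. Cxcl2, a ligand of CXCR2, reached 4021 and 4099 RPKM in MDMs and 259 and 280 in TRMs. Ccl3, a ligand of CCR1, was at 687 and 737 against 25.6 and 23.1 (log2 fold change -4.86, SE 0.13, limma adjusted p = 3.2e-05). The receptors Ccr1, at 100 and 89.3 against 10.6 and 14.4, and Cxcr4, at 48.1 and 44.7 against 7.29 and 9.01, were higher in MDMs too. Cxcl14 was higher in TRMs, at 3.89 and 5.67 against 0.409 and 0.906. Of 25 growth factor receptor genes 16 were higher in MDMs and 2, Flt1 and Tgfbr2, in TRMs (4 with the values as deposited). Both chains of the CSF2 receptor, on which alveolar macrophages rely, were present in all libraries. Csf2ra was at 179 and 158 in TRMs against 205 and 179 in MDMs and was not called (limma adjusted p = 0.28, and 0.035 under TMM), and Csf2rb was at 113 and 87.9 against 181 and 177 (log2 fold change -0.84, SE 0.16, limma adjusted p = 0.0047).

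Lipid metabolism leaned to TRMs. In the list of lipid uptake and efflux 15 of 23 members were higher in TRMs and 2 in MDMs. Lpl, the lipase that frees fatty acids from lipoproteins, was at 181 and 156 RPKM in TRMs and at 14.7 and 17.6 in MDMs (log2 fold change 3.38, SE 0.15, limma adjusted p = 7.8e-05). The fatty acid receptor Cd36 was at 112 and 68.4 against 16.8 and 14.5, and Lipa, the lysosomal acid lipase, at 88.2 and 67.6 against 16.8 and 14.9. The 2 cholesterol exporters parted. Abcg1 was higher in TRMs, at 47.3 and 38.9 against 11.4 and 13.6, and Abca1 in MDMs, at 18.1 and 22.3 against 4.397 and 4.68. Fatty acid oxidation, the burning of fatty acids in mitochondria and peroxisomes, had 24 of 28 members higher in TRMs (median log2 fold change 1.68). Hsd17b4, a peroxisomal enzyme of this route, was at 74.9 and 59.7 against 13.1 and 12.8, and Cpt1a, which brings fatty acids into mitochondria, at 26.0 and 24.6 against 9.39 and 9.66. The nuclear receptor Ppard was 1 of the 2 members higher in MDMs, at 18.7 and 18.3 against 8.80 and 5.80.

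Synthesis and storage of fat did not follow 1 direction. Of 27 genes of triacylglycerol synthesis and lipid droplets 11 were higher in TRMs and 6 in MDMs. Lpin1, a phosphatidate phosphatase, was at 20.1 and 16.6 RPKM in TRMs against 1.49 and 1.57 in MDMs, and Plin2, the droplet coat protein, at 336 and 277 against 156 and 154. The enzymes of the last step ran the other way. Dgat2 was at 15.9 and 22.8 in MDMs against 1.60 and 1.80 in TRMs (log2 fold change -3.41, SE 0.22, limma adjusted p = 1.6e-04) and Dgat1 at 56.7 and 39.7 against 23.7 and 15.9. Pnpla2, the lipase that G0s2 inhibits, was at 43.2 and 45.1 in TRMs and at 34.6 and 39.9 in MDMs and was not called (limma adjusted p = 0.15, and 0.026 with the values as deposited), beside the large difference in G0s2 itself. Cholesterol synthesis had 12 of 19 members higher in TRMs and 3 in MDMs. Hmgcs1 had a log2 fold change of 1.03 (SE 0.15). Eicosanoid genes were higher in TRMs in 11 of 21 cases and in MDMs in 6, among them Ptgs2 (cyclooxygenase-2), at 88.2 and 60.3 in MDMs against 6.19 and 4.45 in TRMs.

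Energy metabolism differed by route. Of 75 nuclear genes of the respiratory chain 54 were higher in TRMs and 2 in MDMs, the median log2 fold change being 0.89, and under TMM scaling 43 were higher in TRMs and 2 in MDMs. The share of mitochondrial reads was also higher in TRMs, as given above, and its part in this result was not tested. Without TRM replicate 1 these counts were 47 and 6, and without any other single library the count in MDMs was 0. Atp5a1, a subunit of ATP synthase, was at 193 and 206 RPKM in TRMs and at 69.7 and 66.9 in MDMs. For glycolysis and hypoxia genes 13 of 30 were higher in MDMs and 7 in TRMs (16 and 3 under TMM, 12 and 3 without MDM replicate 1). Slc2a3, the high-affinity glucose transporter, was at 56.6 and 41.0 in MDMs and at 0.499 and 0.650 in TRMs (log2 fold change -6.17, SE 0.23, limma adjusted p = 5.5e-05). The lactate exporter Slc16a3 was at 68.4 and 52.5 against 3.82 and 4.47, and Vegfa, the vessel growth factor, at 406 and 314 against 61.1 and 47.7. Transporters of glucose and lactate were thus far apart, whereas Ldha, the enzyme between them, was at 90.2 and 85.4 in TRMs and at 80.0 and 94.4 in MDMs (log2 fold change 0.01, SE 0.14, limma adjusted p = 0.93). Aldoc, an aldolase, was higher in TRMs, at 11.5 and 12.99 against 1.45 and 1.77.

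Proliferation genes were higher in TRMs, in 31 of 38 cases with 1 higher in MDMs (median log2 fold change 2.34). The count higher in MDMs was 2 without TRM replicate 1, under TMM and under quantile scaling, and 3 with voom. Epithelial markers did not move in 1 direction. Called higher in TRMs were 2 of 5 airway epithelium markers, among them Epcam, and 1 of 7 type 2 cell markers. Of 6 type 1 cell markers 3 were higher in TRMs and 1 in MDMs. The part of epithelial transcripts in the result for the proliferation genes was not tested. Mki67, which dividing cells express, was at 53.4 and 56.3 RPKM in TRMs and at 12.5 and 14.9 in MDMs (log2 fold change 1.99, SE 0.15, limma adjusted p = 2.1e-04). Top2a, the topoisomerase of chromosome segregation, was at 17.3 and 17.2 against 1.51 and 2.16. The median MDM level of the members higher in TRMs was 15.5% of the TRM level. Hmgb2, a chromatin protein, was the member called higher in MDMs, at 340 and 363 in MDMs against 183 and 175 in TRMs, and Pcna, the sliding clamp of replication, overlapped.

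Transcription factors of the myeloid lineages were split, 13 of 32 in each direction. Cebpa, needed by alveolar macrophages and early granulocyte precursors, was at 14.3 and 28.6 RPKM in TRMs and at 2.08 and 2.07 in MDMs. Irf8, which favors macrophage and dendritic fates over granulocytes, was at 25.8 and 16.6 against 3.63 and 2.39 (log2 fold change 2.77, SE 0.29, limma adjusted p = 5.6e-04). Bhlhe41, which sustains alveolar macrophage renewal, was at 16.3 and 10.8 against 1.63 and 1.46. Cebpb was higher in MDMs, at 128 and 116 against 52.8 and 61.4, as was Stat3, the mediator of interleukin-6 and G-CSF signals, at 55.6 and 56.5 against 19.2 and 17.0. Spi1 (PU.1) was at 115 and 101 in MDMs against 72.6 and 66.0 in TRMs, and its call was lost without MDM replicate 1 (limma adjusted p = 0.067) and under quantile scaling (limma adjusted p = 0.053).

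Uptake receptors went both ways. Among the 29 receptors of phagocytosis and clearance of dying cells 13 were higher in TRMs and 11 in MDMs. Axl, a partner of Mertk in the uptake of apoptotic cells, was at 141 and 135 RPKM in TRMs against 12.7 and 13.7 in MDMs. Clec4d and Clec4e, receptors for mycobacterial glycolipids, were higher in MDMs, Clec4d at 370 and 326 against 14.7 and 13.5 and Clec4e at 244 and 225 against 24.7 and 20.3. Clec7a (dectin-1), which binds fungal glucan, was at 532 and 481 against 575 and 445 (SE of the log2 fold change 0.17, limma adjusted p = 0.998). Lysosomal protease genes were higher in TRMs in 10 of 13 cases. Ctsk, cathepsin K, was at 641 and 571 against 65.1 and 67.7, while Ctsb, cathepsin B, was at 227 and 185 against 221 and 201. In the alternative activation list, 9 of 17 were higher in TRMs and 3 in MDMs (6 without TRM replicate 2, 5 under TMM and with voom). Mrc1 was at 231 and 176 in TRMs against 16.7 and 15.1 in MDMs.

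Checkpoint and costimulation genes were called in 20 of 28 cases, 10 in each direction. Cd274, which encodes PD-L1, was at 520 and 508 RPKM in MDMs and at 174 and 130 in TRMs (log2 fold change -1.77, SE 0.17, limma adjusted p = 4.6e-04). Cd80, a ligand of CD28 and CTLA-4, was at 32.4 and 43.4 against 3.92 and 5.17. Matrix and protease genes were higher in MDMs in 13 of 29 cases and in TRMs in 9. Thbs1 (thrombospondin 1), an adhesive matrix protein that activates TGFβ, was at 489 and 405 in MDMs against 9.89 and 11.6 in TRMs.

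**Figure D4:**
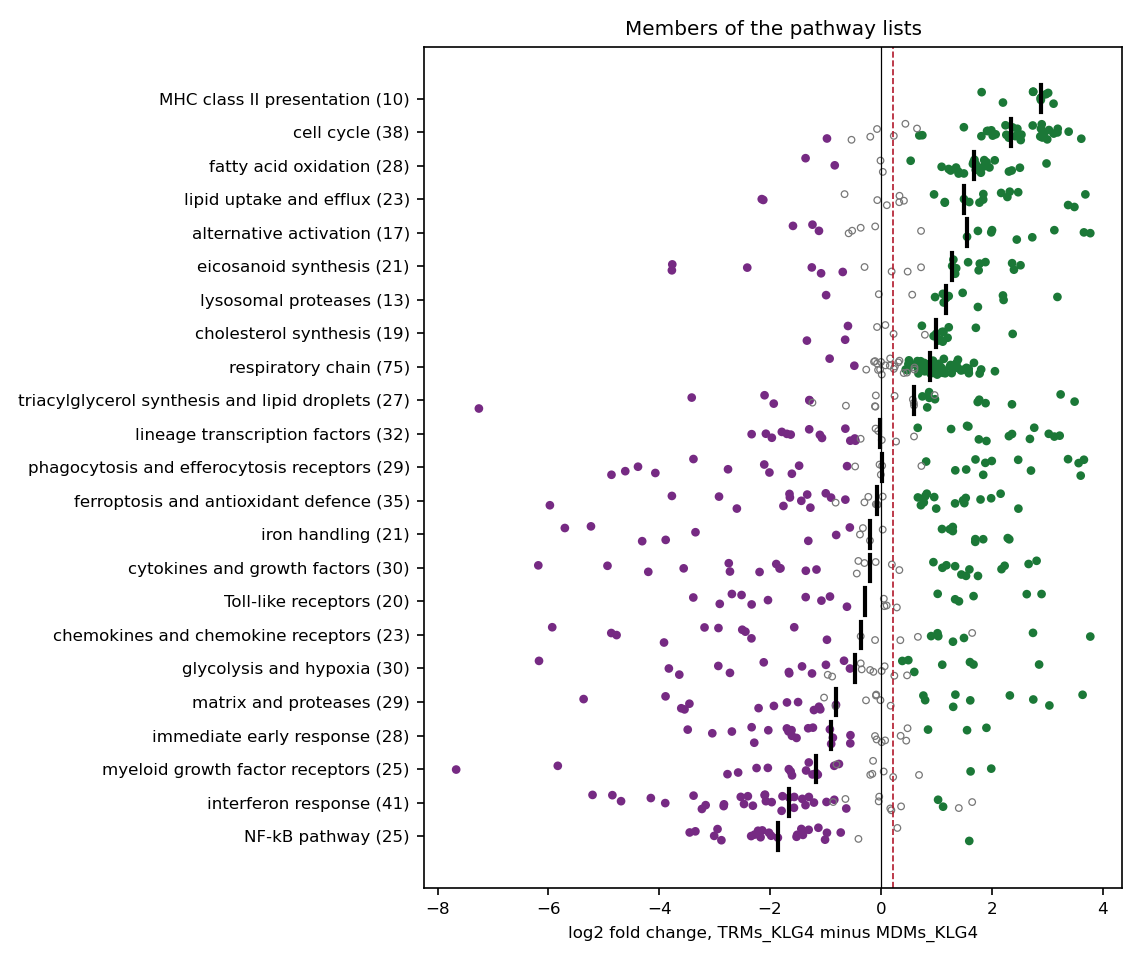
Log2 fold change (TRMs minus MDMs) of each tested member of the pathway lists, with filled green points for genes called higher in TRMs, filled purple points for genes called higher in MDMs and open grey points for genes not called. The black bar is the list's median and the dashed line the median of all tested genes (0.22), and the medians run from 2.88 for MHC class II presentation to -1.86 for the NF-kB pathway.

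The study deletes Gpx4, the enzyme that reduces lipid peroxides and so holds back ferroptosis, an iron-dependent form of cell death, and genes of this process were looked at in the macrophages. Of 35 ferroptosis and antioxidant genes 15 were higher in TRMs and 13 in MDMs. Slc7a11, the cystine importer that feeds glutathione synthesis, was at 66.1 and 62.4 RPKM in MDMs against 8.19 and 8.60 in TRMs (log2 fold change -2.92, SE 0.13, limma adjusted p = 7.5e-05). Osgin1, an oxidative stress gene, was at 66.4 and 43.5 against 0.737 and 0.780. Aifm2, the ubiquinone reductase FSP1, was at 22.5 and 19.4 in TRMs against 6.46 and 7.91 in MDMs, and Cat (catalase) at 26.6 and 26.7 against 5.02 and 6.89. Acsl4, which loads membranes with polyunsaturated fatty acids, was at 14.9 and 13.1 against 14.8 and 14.9 and was not called. Of 21 iron handling genes 9 were higher in TRMs and 8 in MDMs (5 without MDM replicate 2). Fth1, the ferritin heavy chain, was at 9771 and 11529 in MDMs against 4675 and 3923 in TRMs, a call that was lost without MDM replicate 2 (limma adjusted p = 0.052). Slc11a1 (NRAMP1), which moves iron out of phagosomes, was at 76.1 and 80.9 against 4.82 and 3.10.

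The 2 genes targeted in the tumor cells were expressed in both macrophage populations. Gpx4 (chromosome 10, positions 80047166 to 80056439, plus strand, GRCm38) was at 51.6 and 51.7 RPKM in TRMs and at 101 and 105 in MDMs. The means were 51.7 ± 0.0599 (SD, n = 2) and 103 ± 2.68 (SD, n = 2). The log2 fold change was -0.99 (SE 0.12, limma adjusted p = 8.9e-04). Stk11, which encodes LKB1 (chromosome 10, 80115803 to 80130682, plus strand), was at 220 and 190 in MDMs against 40.7 and 36.3 in TRMs, a log2 fold change of -2.40 (SE 0.14, limma adjusted p = 1.3e-04). Sbno2, which lies between them on the minus strand (80057416 to 80102698), was at 375 and 358 against 52.2 and 47.4, a log2 fold change of -2.88 (SE 0.13, limma adjusted p = 7.5e-05). The 3 neighbors were all higher in MDMs. RPKM over a whole gene do not show which exons the reads came from.

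The last question was whether the difference between the populations depends on Gpx4 loss in the tumor cells, and KL tumors, which carry the same Lkb1 alleles, gave the other genotype. Over 11044 genes and 8 libraries, limma called 0 genes at an adjusted p of 0.05 (smallest 0.12), and 0 with voom as well. At an unadjusted p under 0.05 it called 2176 (19.7%), of which 1805 (16.3% of the tested genes) differed at least 2-fold. Leaving out MDM replicate 1 of KL raised the count of calls to 1161, and leaving out TRM replicate 2 of KL raised it to 29. The KL libraries were not alike. Mitochondrial reads made up 13.2% and 9.17% of the TRM libraries and 1.35% and 3.36% of the MDM libraries of KL. Their MDM libraries held neutrophil sums of 23708 and 9929 RPKM and interstitial macrophage sums of 483 and 2257. Xist, an RNA made by female cells, stood at 21.7 and 0.773 in these libraries and at 0.174 and 0.373 in the KL TRM libraries, against 17.5 to 20.97 in the 4 KLG4 libraries. The part of these differences between libraries in the genotype test was not tested. The neutrophil markers were high in the MDM libraries of both genotypes, with median log2 fold changes of -6.54 in KLG4 and -6.46 in KL. The alveolar macrophage markers had medians of 3.08 in KLG4 and 1.61 in KL, with all genes at 0.21 and -0.41. Marco had log2 fold changes of 3.69 in KLG4 and 1.44 in KL, and the difference did not pass (log2 2.25, limma adjusted p = 0.18). Among the 24 genes with the widest differences, Stfa2 had the smallest p, with 181 and 59.2 RPKM in the MDM libraries and 3.85 and 2.70 in the TRM libraries of KL (limma adjusted p = 0.13). Gpx4 was at 61.0 and 65.7 RPKM in the TRM libraries and at 44.6 and 65.7 in the MDM libraries of KL. Its log2 fold change was -0.99 in KLG4 and 0.22 in KL, and the difference between them did not pass (log2 -1.22, limma adjusted p = 0.20).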

How the data were processed

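Bulk RNA was sequenced from TRMs and MDMs sorted from KLG4 lung tumors, with 2 libraries each. The authors, per the labels and their methods, trimmed reads with Trim Galore 0.6.4, aligned them with HISAT2 2.0.5 to the mouse genome (Ensembl 94, GRCm38) and counted them per gene with featureCounts 2.0.0 without strand, so a gene and its antisense or overlapping partner, and near-identical copies, cannot be told apart. The authors deposited RPKM per library, in 1 table for each population. Each table also holds the authors' fold changes and p-values between KL and KLG4, which were not used, and no per-sample column was left over (0). The TRM table lists 13545 genes and that of MDMs lists 13407, and 19 date-like names in each were dropped.

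Multiplied by gene length, the values were whole multiples of 1 read (tolerance 0.05), which gave depths of about 11756000 to 26775000 counted reads. RPKM of the 2 tables were multiplied by 0.908 to 1.08 to reach 1 common sum over the shared genes without mitochondrial genes. limma 3.58.1 (R 4.3.3, lmFit and eBayes with trend) was run on log2(rescaled RPKM + 0.1), two-sided, with Benjamini-Hochberg adjustment over all tested genes. The pseudocount understates the change of low genes. The study's own threshold was an unadjusted p of 0.05 and a 2-fold difference. Named genes were the 12 largest log2 fold changes in each direction among called genes without overlap and with a mean of at least 10 RPKM in the higher population, with Gpx4, Stk11, Sbno2 and members of the gene lists. For the genotype test, up to 5 genes in each direction were to be named, and none passed. The comparison, its gene lists and the motifs were chosen with earlier results of these data known, and lists are described by counts and medians without a test. The fit was also run on simulated data with few changed genes, raised and lowered in equal number, so it cannot test the scaling used here. Alternatives were other pseudocounts (1 and 0.01), scalings and filters, no trend, voom on recovered reads, a replicate block and each library left out. A few items, among them 1 allele of the mice and some list members, are not reported here. Promoters were from RefSeq (GRCm38.p6). Figures were drawn with matplotlib 3.10.9.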

Additional observations from a re-analysis of the deposited data

How the results depend on the processing

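The counts of genes called between TRMs and MDMs stayed within 1.5 times the reported ones under every alternative except a filter at a mean of 5 RPKM. That filter left 6036 genes, of which 4336 were called (2235 higher in TRMs), and 2817 at the threshold of the study (1450 higher in TRMs), since fewer genes were tested. Without 1 library the calls numbered 5875 to 7116. Such a fit takes its spread from the other population, and the lone library is assumed to vary like it. Of the 607 called genes in the lists or named above, 506 kept their call under every alternative that could be run for them and 101 lost it under at least 1. For 13 lists the median changed sign under some alternative. The reported medians of these lists lay between -0.41 and 0.59.

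The replicate numbers were not taken as pairs, because no label says that a number marks a mouse or a day. The correlation between the populations of the replicate 1 minus replicate 2 differences was 0.180 across genes, from 2 pairs. With the replicate block 7473 genes were called instead of 7245. Among 801 list and named genes the block added 40 calls and removed 3, and of the MHC class I genes it called 11 higher in TRMs and 5 in MDMs.

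The dependence on genotype called 0 genes in all 8 libraries and 0 to 1161 with 1 library left out, the most without MDM replicate 1 of KL. At the threshold of the study it called 1805 genes (993 to 3080 with 1 library left out), 1007 with the values as deposited, 574 under TMM, 609 under quantile scaling, 893 with a mean of at least 5 RPKM and 507 with voom. The cause was not tested. Depth limits the precision of levels under 1 RPKM in 1 population, and genes with fewer than 2 libraries at 1 RPKM were left out.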

Other observations

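Genes listed in 1 of the 2 tables could not be compared. The MDM table held 1241 such genes, of which 110 were at 10 or more deposited RPKM in both KLG4 MDM libraries, and the TRM table held 1379, of which 25 reached that level in both KLG4 TRM libraries. Among those of the MDM table, picked after their values were seen, Olfm4 (olfactomedin 4, a granule protein of a subset of neutrophils) was at 37.9 and 45.0, Ifitm6 at 33.6 and 19.1, and Mir223, the gene of a microRNA of myeloid cells, at 36.3 and 38.4. The V-ATPase, the proton pump of lysosomes, had 7 of 17 members higher in MDMs and 3 in TRMs (4 and 1 without MDM replicate 2). The subunit Atp6v0d2, also an alveolar macrophage marker, was at 665 and 588 in TRMs against 132 and 160 in MDMs. Of 18 complement genes 6 were higher in TRMs and 5 in MDMs, and of 36 adhesion and surface genes 14 and 18. Itgax (CD11c), a surface protein high on alveolar macrophages, was at 174 and 173 in TRMs against 27.2 and 26.5 in MDMs. Of 8 Fc receptor genes 2 were higher in TRMs, Fcgrt and Fcgr1, and 1, Fcer1g, in MDMs. These counts were 3 and 2 without TRM replicate 2 and without MDM replicate 1.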
